A study of Mus musculus with 5 samples.

Results

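The genes described here encode the enzymes, regulators and carriers of sterol and fatty acid synthesis. They are 30 listed genes, 21 of sterol synthesis (the sterol arm) and 9 of fatty acid synthesis (the fatty acid arm). A gene was represented by the probe set that carried its symbol alone and had the highest mean over all 5 arrays. This found 29 of the 30 genes, 20 in the sterol arm and 9 in the fatty acid arm, among 18194 genes in all. Acat2 had no such probe set, and it enters the promoter counts only. Levels are log2(intensity + 16), and every difference and fold is on that scale. Of the 29 measured genes, 28 passed a limit on the mean level over all arrays (7.17, an intensity of 128) and were tested among 10916 genes. Dhcr7 lay under the limit at a mean of 6.73 and is given by its values, while Mvd (7.62) and Mvk (7.65) lay just above it.

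The arrays measured RNA from cultured cells of C57BL/6J background, labelled as aortic endothelial cells and held 24 h. The titles name 3 arrays control and 2 arrays TNF-LTBR. The design text speaks of stimulation with agonists, and the series' title names TNFR1 and LTBR, receptors of the inflammatory cytokines TNF and lymphotoxin, together with smooth muscle cells. The comparison therefore asks which transcripts differed after receptor stimulation. All cultures shared a serum-containing medium, and all 5 samples carry a treatment text that names only PBS, so that only the titles tell the groups apart. The agonists used, with their doses, were not given in these sources. The labels do not say that arrays came from separate cultures or animals, and p-values therefore measure the spread between these arrays, which may be technical. Array medians lay between 109.9 and 120.7, pairwise correlations over the tested genes between 0.875 and 0.978, and the number of arrays limits the precision.

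The label was set against cell type markers. Of 13 endothelial markers, 5 lay above the brightness limit. The brightest, Eng, lay between 10.61 and 10.87, and the dimmest, Vwf, which encodes von Willebrand factor, between 4.19 and 4.54, where the added 16 exceeds the intensity. Cdh5, which encodes the junction protein of endothelial cells and was picked with its values known, lay between 5.48 and 7.97. All 6 fibroblast markers lay above the limit, from Col1a2 at 14.10 to 14.34 down to Thy1 at 7.17 to 13.58. Of 8 smooth muscle markers, 5 did, with Acta2 between 11.02 and 13.00 and Myh11 between 4.36 and 5.84. Of 7 macrophage markers, 5 did, with Cd14 between 9.27 and 10.10 and Itgam between 4.41 and 7.07. Of 4 measured adipocyte markers, 1 did, Retn at 7.64 to 7.98, and Cidec was lowest at 4.07 to 4.57. Vwf and Cdh5, defining transcripts of endothelial cells, thus lay under the limit, and the cultures are called by their label only.

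Cholesterol is built from acetyl-CoA by way of mevalonate, farnesyl diphosphate, squalene and lanosterol. Fatty acids are built from the same precursor by way of malonyl-CoA, then elongated and desaturated. The SREBP transcription factors, released from the endoplasmic reticulum when membrane sterol is low, drive both branches, SREBP2 mainly the sterol genes and SREBP1 mainly the fatty acid genes. They bind sterol regulatory elements, often next to sites of NF-Y and Sp1. Proliferating cells use both branches for new membrane.

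Promoter windows of 300 bases (250 before to 50 after a transcript start, RefSeq, GRCm38.p6) were found for 23 of the 30 listed genes, 28 windows in all. Of these genes 17 belong to the sterol arm and 6 to the fatty acid arm. Fdps, Fdft1, Sqle, Stard4, Fads1, Scd1 and Scd2 had no entry. The stretches below run 5′ to 3′ up to the base before the start. They belong to Hmgcs1, whose window alone held the sterol regulatory element letters, to 5 sterol genes with a wide spread over the arrays, and to Fasn as the fatty acid gene set against them. Capitals mark TCACNCCAC, where N is any base, and CCAAT, the NF-Y box, or their reverse complements.
Hmgcs1: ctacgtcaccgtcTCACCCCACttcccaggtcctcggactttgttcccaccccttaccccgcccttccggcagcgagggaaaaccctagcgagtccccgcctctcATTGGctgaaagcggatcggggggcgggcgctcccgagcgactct
Idi1: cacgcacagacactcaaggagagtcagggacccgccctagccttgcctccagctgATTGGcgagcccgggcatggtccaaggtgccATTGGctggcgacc
Mvd: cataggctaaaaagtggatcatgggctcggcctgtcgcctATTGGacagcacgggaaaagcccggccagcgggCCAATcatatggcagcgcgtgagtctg
Cyp51: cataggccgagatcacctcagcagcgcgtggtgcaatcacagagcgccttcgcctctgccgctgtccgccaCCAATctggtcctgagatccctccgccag
Msmo1: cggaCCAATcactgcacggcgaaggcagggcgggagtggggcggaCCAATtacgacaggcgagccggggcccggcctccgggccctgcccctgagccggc
Hsd17b7: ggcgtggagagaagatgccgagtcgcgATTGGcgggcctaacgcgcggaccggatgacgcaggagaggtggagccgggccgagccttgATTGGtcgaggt
Fasn: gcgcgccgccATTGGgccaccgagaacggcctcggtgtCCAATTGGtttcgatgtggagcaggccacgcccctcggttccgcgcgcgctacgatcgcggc
The Hmgcs1 stretch covers 150 bases at chr13:119690201-119690350 on the plus strand. The others cover 100 bases, at chr13:8885506-8885605 on the plus strand for Idi1, chr8:122443423-122443522 on the minus strand for Mvd, chr5:4104698-4104797 on the minus strand for Cyp51, chr8:64733579-64733678 on the minus strand for Msmo1, chr1:169969206-169969305 on the minus strand for Hsd17b7, and chr11:120824548-120824647 on the minus strand for Fasn.

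Both strands were searched for 4 motifs. TCACNCCAC was in the window of 1 of 23 genes, Hmgcs1, which encodes the synthase of HMG-CoA, with its first base at position -137 from the start. It was in 1.24% of all 32851 windows (1.44% of genes). CCAAT was in 19 of 23 genes, 16 of 17 in the sterol arm and 3 of 6 in the fatty acid arm, and in 37.4% of all windows (41.1% of genes). The GC box GGGCGG was in 19 of 23 genes and 35.7% of all windows (38.2% of genes). By arm it was in 16 of 17 sterol genes and 3 of 6 fatty acid genes, the same counts as for CCAAT. The E-box CACGTG was in 4 genes, Hsd17b7, Insig1, Dhcr7 and Sc5d, and in 7.15% of all windows (8.09% of genes). In Fasn, CCAAT on one strand overlapped CCAAT on the other. Matches are letters in a window and were not tested as sites.

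**Figure D1:**
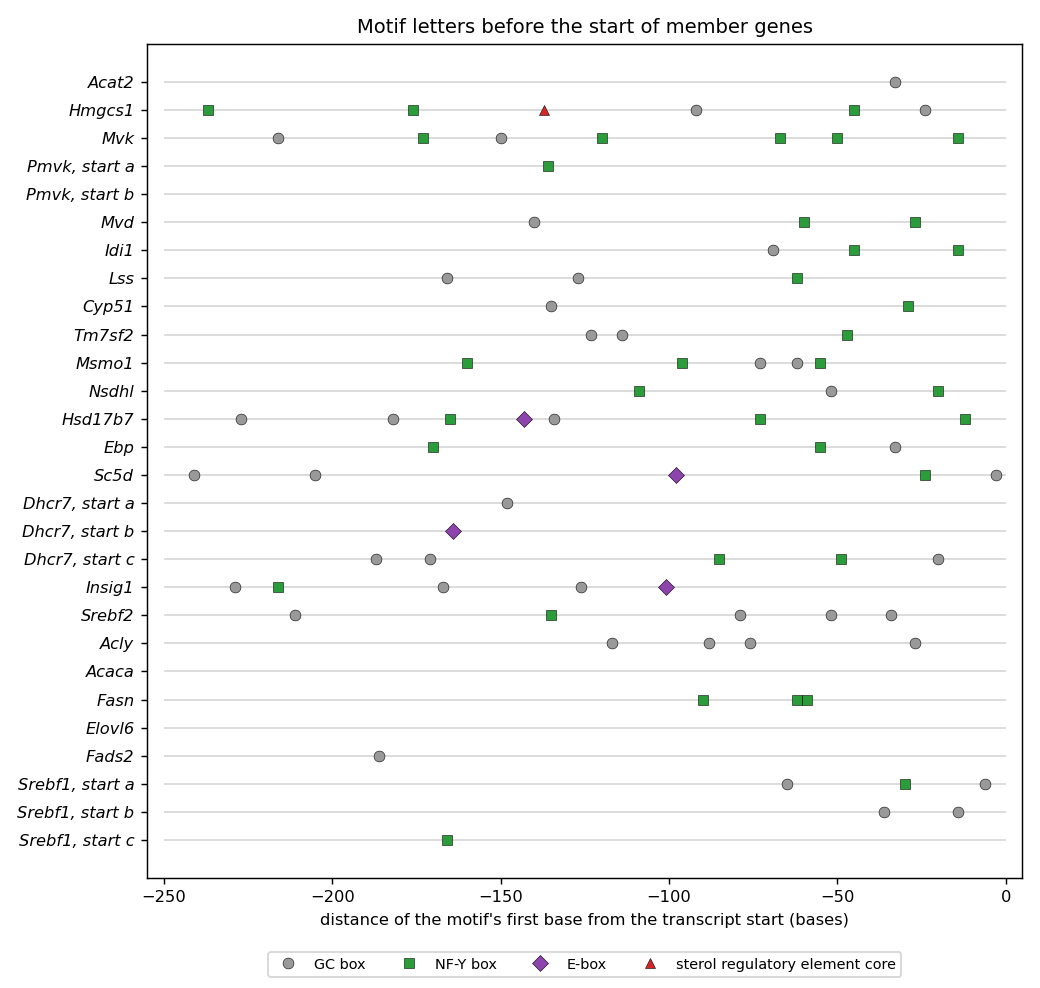
Position of motif letters before the transcript start in the 28 promoter windows of 23 member genes. The x axis is the distance in bases of a motif's first base from the start, each grey line is 1 window, and markers are the 4 motifs. NF-Y boxes lay within the last 100 bases in 13 of 17 sterol genes and 2 of 6 fatty acid genes, against 22.0% of all 27025 genes in the promoter table. Lines without a marker held no motif before the start.

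No member passed the test between the groups. Over all 10916 tested genes, limma called 0 (0.00%) at an adjusted p under 0.05, and 192 genes (1.76%) had an unadjusted p under 0.05, among them 1 member, Lss. The adjusted p of every tested member was 0.999. TNF-LTBR was higher than control in 18 of 20 sterol genes and 9 of 9 fatty acid genes, against 52.3% of all genes. The median difference was 0.27 in the sterol arm, 0.13 in the fatty acid arm and 0.01 over all genes. By array, 16 of 20 sterol genes were highest on TNF-LTBR array 1 (28.8% of all genes were) and 17 were lowest on control array 3 (23.0%). Within the TNF-LTBR group, array 1 exceeded array 2 by a median of 0.87 in the sterol genes, 0.28 in the fatty acid genes and 0.08 over all genes.

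**Figure D2:**
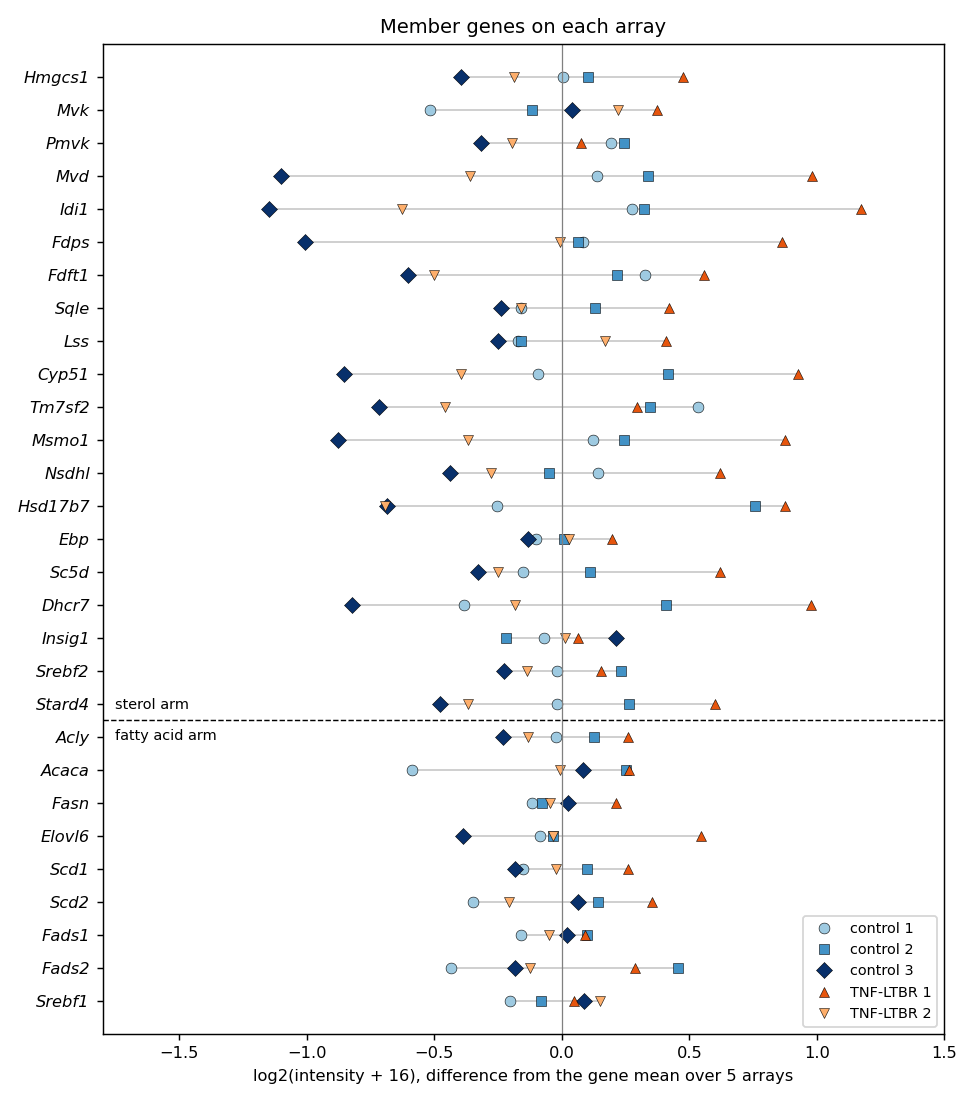
Each measured member on each array, as the difference of its log2(intensity + 16) from its own mean over 5 arrays (x axis, log2). Blue markers are the 3 control arrays and orange markers the 2 TNF-LTBR arrays. In most sterol genes TNF-LTBR array 1 is at the right end and control array 3 at the left end, with TNF-LTBR array 2 also to the left, while the fatty acid genes lie closer together.

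In the mevalonate part, 5 of 6 measured genes were higher in TNF-LTBR, with a mean difference of 0.39. Idi1, which isomerises isopentenyl diphosphate, had the widest spread of any member. Its level was 8.72, 8.77 and 7.30 on control arrays 1 to 3, against 9.62 and 7.82 on the TNF-LTBR arrays. In intensity this was 407, 420 and 141 in control, against 771 and 210 in TNF-LTBR. Both groups thus held a high and a low array and overlapped. The group difference was 0.46 (1.38-fold, 95% interval -1.33 to 2.25, limma p 0.544), while the TNF-LTBR arrays differed from each other by 1.80.

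Mvd, which decarboxylates mevalonate diphosphate, showed the same order of arrays. Its levels were 7.76, 7.96 and 6.52 in control, against 8.60 and 7.26 in TNF-LTBR, a difference of 0.52 (95% interval -1.03 to 2.06). Fdps, which makes farnesyl diphosphate, was highest on TNF-LTBR array 1 and lowest on control array 3. It lay at 9.62, 9.60 and 8.53 in control, against 10.40 and 9.53 in TNF-LTBR. The means were 9.25 ± 0.63 (SD, n = 3) and 9.97 ± 0.62 (SD, n = 2), a difference of 0.72 or 1.64-fold with overlapping groups (limma p 0.169, adjusted p 0.999). It was 0.28 without TNF-LTBR array 1, 0.35 without control array 3 and 1.15 without TNF-LTBR array 2. Hmgcs1 lay at 10.80, 10.90 and 10.40 in control, against 11.27 and 10.61 in TNF-LTBR, 1.18-fold. Its highest and lowest arrays were again TNF-LTBR array 1 and control array 3.

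Mevalonate is phosphorylated in turn by the products of Mvk and Pmvk, and on their brightest probe sets these genes departed in part from that order. Mvk lay at 7.13, 7.53 and 7.69 in control, against 8.02 and 7.87 in TNF-LTBR, so both TNF-LTBR arrays exceeded the 3 controls, and its lowest array was control array 1. The difference was 0.49 (1.40-fold, 95% interval -0.14 to 1.12, limma p 0.104). A dimmer Mvk probe set, with a mean of 7.00, differed by 0.02. It lay at 7.40, 7.04 and 6.52 in control, against 8.07 and 5.95 in TNF-LTBR. That probe set was highest on TNF-LTBR array 1 and lowest on TNF-LTBR array 2, followed by control array 3. Pmvk was 1 of 2 sterol genes lower in TNF-LTBR, at 8.33, 8.38 and 7.82 in control, against 8.21 and 7.94 in TNF-LTBR, a difference of -0.10. Its groups overlapped.

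From squalene to cholesterol, 10 of 11 genes were higher in TNF-LTBR, with a mean difference of 0.28. Lss, which cyclises squalene epoxide to lanosterol, had the smallest p of all members. Its level was 8.30, 8.31 and 8.22 in control, against 8.88 and 8.64 in TNF-LTBR. Control arrays lay close together and both TNF-LTBR arrays above them. The means were 8.28 ± 0.05 (SD, n = 3) and 8.76 ± 0.17 (SD, n = 2), a difference of 0.48 or 1.40-fold (95% interval 0.06 to 0.91, limma p 0.0325, adjusted p 0.999). Without 1 array it was 0.36 to 0.60. On the Lss probe set with a mean of 7.85 the difference was 0.04.

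Ebp, the sterol isomerase, was the other gene here with both TNF-LTBR arrays above all controls, at 9.68, 9.79 and 9.65 in control, against 9.98 and 9.81 in TNF-LTBR. Its highest control array and lowest TNF-LTBR array were nearly level, and the difference was 0.18 (95% interval -0.18 to 0.54). In all, such a separation was found in 3 of 20 sterol genes (Mvk, Lss and Ebp) and 1 of 9 fatty acid genes (Elovl6), against 8.60% of all genes. The separation of Mvk, Lss and Elovl6 was absent on a further probe set of each. There TNF-LTBR array 2 lay at 5.95, 7.63 and 7.70, under control array 2 at 7.04, 7.87 and 7.85. A dim Lss probe set, with a mean of 6.04, did show it. The opposite separation was found in 0 members and 6.38% of all genes.

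The enzymes that strip methyl groups from lanosterol were spread widely within the groups. Cyp51 lay at 8.18, 8.69 and 7.42 in control, against 9.20 and 7.88 in TNF-LTBR. Msmo1, the methylsterol oxidase, lay at 10.12, 10.24 and 9.12 in control, against 10.87 and 9.63 in TNF-LTBR. Control array 3 and TNF-LTBR array 2 were the lowest arrays for both genes. Hsd17b7, a sterol ketone reductase, lay at 8.72, 9.73 and 8.29 in control, against 9.85 and 8.28 in TNF-LTBR, and the TNF-LTBR arrays were 1.57 apart against a group difference of 0.15. Nsdhl, the dehydrogenase of the same complex, lay at 9.75, 9.56 and 9.17 in control, against 10.23 and 9.33 in TNF-LTBR. Group differences of Cyp51, Msmo1 and Nsdhl were 0.44, 0.42 and 0.29, each smaller than the gap between their 2 TNF-LTBR arrays (1.31, 1.24 and 0.90).

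Fdft1, squalene synthase, was nearly level between groups at a difference of 0.05, with 10.06, 9.95 and 9.13 in control, against 10.29 and 9.23 in TNF-LTBR. Sqle, which encodes squalene epoxidase, lay at 9.50, 9.79 and 9.42 in control, against 10.08 and 9.50 in TNF-LTBR, a difference of 0.22. Both genes were highest on TNF-LTBR array 1 and lowest on control array 3. Tm7sf2, a sterol reductase, was the other sterol gene lower in TNF-LTBR, at 8.92, 8.73 and 7.67 in control, against 8.68 and 7.93 in TNF-LTBR (difference -0.13). Sc5d, a sterol desaturase, lay at 9.70, 9.96 and 9.52 in control, against 10.47 and 9.60 in TNF-LTBR (difference 0.31). Dhcr7, which catalyses the last step to cholesterol, lay at 6.35, 7.14 and 5.91 in control, against 7.71 and 6.55 in TNF-LTBR. It was not tested, and its difference of 0.66 had overlapping groups.

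Regulators and the carrier had a mean difference of 0.09 over 3 genes. Insig1, which holds SREBP in the endoplasmic reticulum and is itself an SREBP target, did not share the order of the enzyme genes. Its level was 9.91, 9.76 and 10.19 in control, against 10.04 and 9.99 in TNF-LTBR, highest on control array 3. Srebf2, which encodes SREBP2, lay at 8.94, 9.19 and 8.73 in control, against 9.11 and 8.82 in TNF-LTBR. Its difference was 0.01 (95% interval -0.52 to 0.53), and it was -0.01 after quantile normalization and -0.02 after median centring. Stard4, a cholesterol carrier, followed the enzymes at 8.33, 8.61 and 7.87 in control, against 8.95 and 7.98 in TNF-LTBR.

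**Figure D3:**
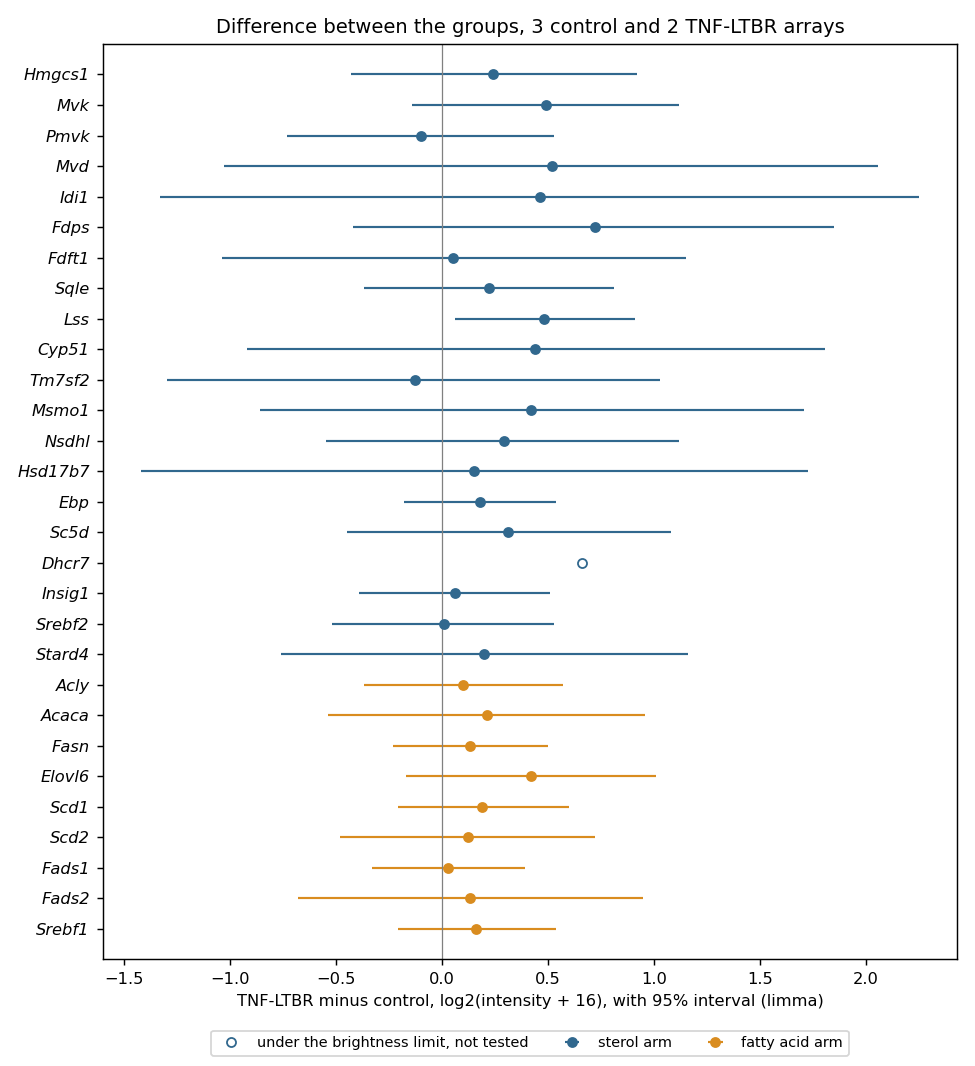
TNF-LTBR minus control for each measured member on the log2(intensity + 16) scale (x axis), with 95% intervals from limma over 3 control and 2 TNF-LTBR arrays. Blue marks the sterol arm and orange the fatty acid arm, and the open circle is Dhcr7, which was not tested. Only the interval of Lss (0.06 to 0.91) does not include 0, before adjustment.

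In the fatty acid arm, the genes of synthesis and elongation differed by 0.22 on average and the desaturases by 0.12. Elovl6, which elongates palmitate, was the member of this arm with both TNF-LTBR arrays above all controls. It lay at 9.42, 9.47 and 9.12 in control, against 10.05 and 9.47 in TNF-LTBR, and TNF-LTBR array 2 was level with control array 2 to 2 decimals. The difference was 0.42 or 1.34-fold (95% interval -0.17 to 1.01, limma p 0.127, adjusted p 0.999). Fasn, fatty acid synthase, varied little, at 10.75, 10.79 and 10.89 in control, against 11.08 and 10.82 in TNF-LTBR. Its groups overlapped and its difference was 0.13 (95% interval -0.23 to 0.50).

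Acly, which makes cytosolic acetyl-CoA for both branches, lay at 11.50, 11.65 and 11.29 in control, against 11.78 and 11.39 in TNF-LTBR (difference 0.10). Acaca, which makes malonyl-CoA, lay at 8.32, 9.16 and 8.99 in control, against 9.17 and 8.90 in TNF-LTBR (difference 0.21). Control array 1 was the lowest for Acaca, and control array 3 for Acly. Of the desaturases that act on saturated fatty acids, Scd1 lay at 11.23, 11.48 and 11.20 in control, against 11.64 and 11.36 in TNF-LTBR. Scd2 lay at 12.33, 12.82 and 12.74 in control, against 13.03 and 12.47 in TNF-LTBR. Both were highest on TNF-LTBR array 1, with overlapping groups and differences of 0.19 and 0.12.

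The desaturases of polyunsaturated fatty acids were highest on control array 2, though Fads1 was nearly level with TNF-LTBR array 1. On other probe sets above the brightness limit, Fads1 was highest on TNF-LTBR array 2 (8.07). Fads2 was there level at 8.83 on control array 2 and TNF-LTBR array 1. Fads1 lay at 10.74, 11.00 and 10.92 in control, against 10.99 and 10.85 in TNF-LTBR, and its difference of 0.03 was the smallest in this arm. Fads2 lay at 8.22, 9.11 and 8.47 in control, against 8.94 and 8.53 in TNF-LTBR (difference 0.13). Srebf1, which encodes SREBP1, was the member of this arm highest on TNF-LTBR array 2, at 10.10, 10.22 and 10.39 in control, against 10.35 and 10.45 in TNF-LTBR. Its difference was 0.16 (95% interval -0.21 to 0.54), with overlapping groups.

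The arms were then set side by side. The mean level of the 20 sterol genes was 8.94, 9.13 and 8.43 in control, against 9.52 and 8.71 in TNF-LTBR, or 8.83 ± 0.36 (SD, n = 3) and 9.12 ± 0.57 (SD, n = 2). TNF-LTBR array 1 was highest, control array 3 lowest, and the groups overlapped. For the 9 fatty acid genes it was 10.29, 10.63 and 10.45 in control, against 10.78 and 10.47 in TNF-LTBR, or 10.46 ± 0.17 (SD, n = 3) and 10.62 ± 0.22 (SD, n = 2). Here control array 1 was lowest and the groups overlapped too. The mean differences were 0.28 and 0.17, and the sterol arm's exceeded the fatty acid arm's by 0.12.

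These arm differences moved with single arrays. The sterol mean difference was -0.12 without TNF-LTBR array 1, 0.08 without control array 3, 0.43 without control array 2 and 0.69 without TNF-LTBR array 2. For the fatty acid arm it was 0.01 without TNF-LTBR array 1, 0.08 without control array 1, 0.26 without control array 2 and 0.32 without TNF-LTBR array 2. Sterol minus fatty acid was -0.13 without TNF-LTBR array 1, -0.08 without control array 3, 0.18 without control array 2, 0.25 without control array 1 and 0.37 without TNF-LTBR array 2. Leaving out TNF-LTBR array 1 turned the direction of 12 of 20 sterol genes and 4 of 9 fatty acid genes, and leaving out control array 3 that of 4 sterol genes, Fdft1, Hsd17b7, Idi1 and Srebf2. Leaving out control array 1 turned 4 of 9 fatty acid genes, Acaca, Fads1, Fads2 and Scd2, and 1 sterol gene, Tm7sf2.

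**Figure D4:**
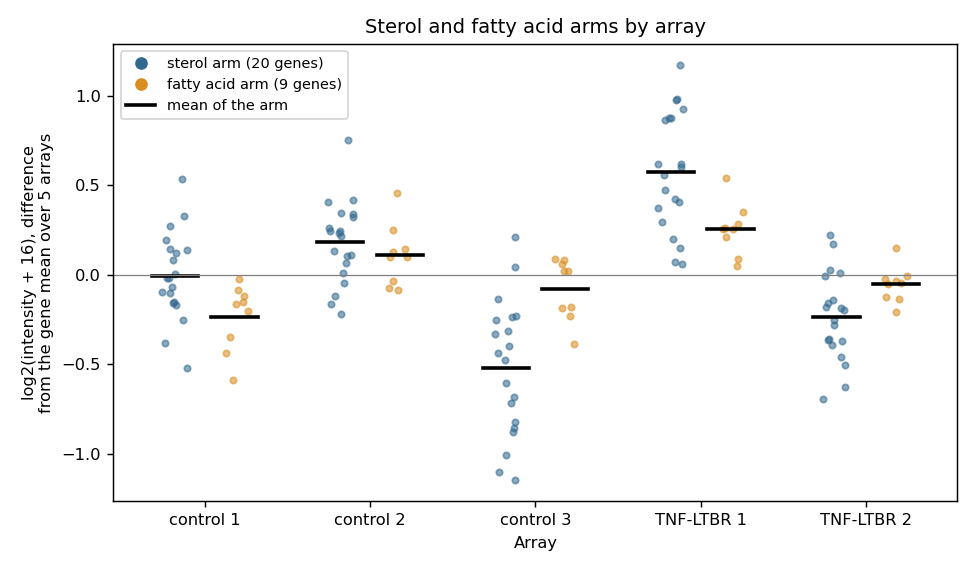
Difference of each gene's log2(intensity + 16) from its mean over 5 arrays (y axis, log2), for the 20 sterol and 9 fatty acid genes on each array (x axis). Black bars are arm means. Sterol means run from -0.52 on control array 3 to 0.58 on TNF-LTBR array 1, and fatty acid means from -0.23 on control array 1 to 0.26 on TNF-LTBR array 1.

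As a difference from each gene's own mean, the sterol arm stood at -0.01, 0.18 and -0.52 on control arrays 1 to 3, against 0.58 and -0.24 on TNF-LTBR arrays 1 and 2. The fatty acid arm stood at -0.23, 0.11 and -0.08 in control, against 0.26 and -0.06 in TNF-LTBR. From its lowest to its highest array the sterol mean spanned 1.10 and the fatty acid mean 0.49. After median centring the sterol arm stood at -0.53 on control array 3 and 0.50 on TNF-LTBR array 1, and after quantile normalization at -0.54 and 0.57. The mean over all genes stayed between -0.04 and 0.07 on the deposited scale.

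The median SD within groups was 0.47 for the sterol genes, 0.22 for the fatty acid genes and 0.29 for all genes. The median range over the 5 arrays was 1.07, 0.48 and 0.72. Over the tested genes alone, which leave out the dim ones, the median SD was 0.23 and the median range 0.56. The fatty acid genes lay near these values. TNF-LTBR array 1 exceeded TNF-LTBR array 2 by at least 1 in 7 of 20 sterol genes and 0 of 9 fatty acid genes, against 8.77% of all genes. Control array 3 and TNF-LTBR array 2 were the 2 lowest arrays in 14 of 20 sterol genes, 1 of 9 fatty acid genes and 21.0% of all genes. Control array 1 was lowest in 6 of 9 fatty acid genes and 1 of 20 sterol genes, against 20.6% of all genes.

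**Figure D5:**
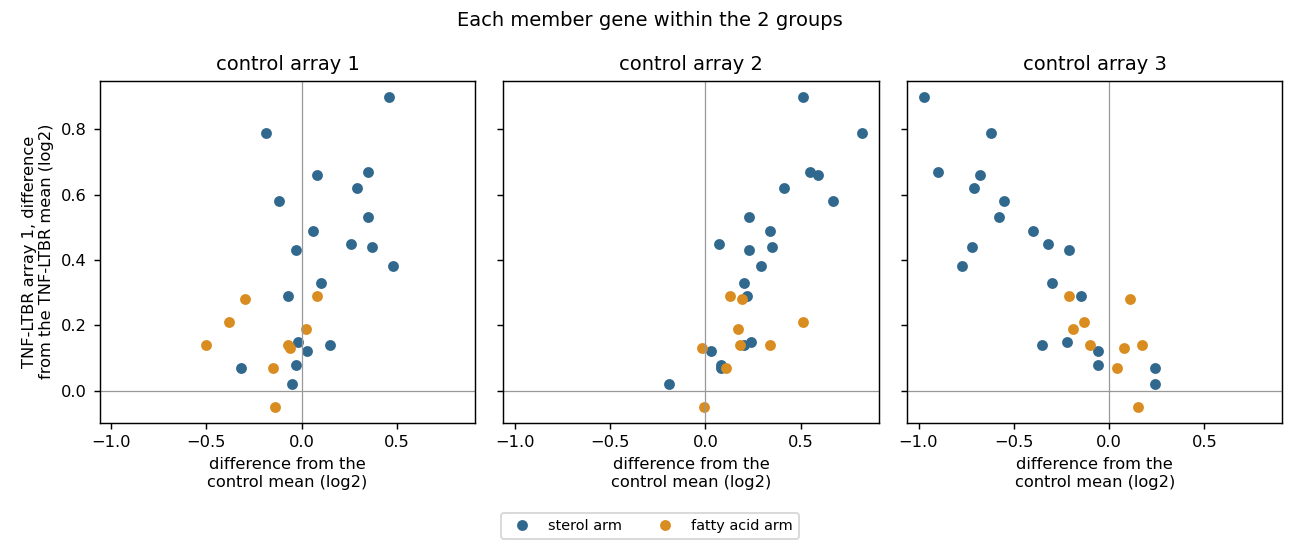
Each point is 1 member gene. The y axis is its difference from the TNF-LTBR mean on TNF-LTBR array 1 and the x axis its difference from the control mean on control array 1, 2 or 3 (log2), with the sterol arm in blue and the fatty acid arm in orange. Sterol genes high on TNF-LTBR array 1 were also high on control array 2 (r = 0.84) and low on control array 3 (r = -0.85).

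Across genes, the difference of TNF-LTBR array 1 from its group mean correlated with that of control array 2 at r = 0.84 over 20 sterol genes and 0.43 over 9 fatty acid genes, and with that of control array 3 at -0.85 and -0.52. Over all 10916 tested genes the values were 0.80 and -0.81. The relation between these arrays was thus present over the tested genes as a whole. Points share the same arrays, genes are not independent replicates, and differences within a group sum to 0.

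Other transcripts differed between the same arrays. Mean differences from each gene's own mean for the 13 measured of 14 DNA replication genes were 0.04, 0.10 and -0.51 in control, against 0.55 and -0.17 in TNF-LTBR. Of these genes 8 were highest on TNF-LTBR array 1 and 8 lowest on control array 3. Summed intensity of 7 macrophage markers was 2983, 6031 and 1616 in control, against 6583 and 1405 in TNF-LTBR. That of 13 endothelial markers was 3556, 4048 and 2764 in control, against 3407 and 2669 in TNF-LTBR. Control array 3 and TNF-LTBR array 2 were thus low for the means or sums of these lists, as for the sterol genes. Single genes departed from this. Of the DNA replication genes, 1 was highest on control array 3 and 3 on TNF-LTBR array 2. Of the endothelial markers these counts were 0 and 1, and of the macrophage markers 0 and 0. Eng, the brightest endothelial marker, was lowest on control array 1. For 8 smooth muscle markers the sum was 14634, 11970 and 4211 in control, against 6805 and 4036 in TNF-LTBR. For 6 fibroblast markers it was 29839, 46442 and 57494 in control, against 48626 and 59556 in TNF-LTBR, with control array 3 and TNF-LTBR array 2 highest. The genes of this list did not all share that order, since Thy1 lay at 11.34, 13.58 and 7.41 in control, against 13.12 and 7.17 in TNF-LTBR, lowest on those arrays. The mean difference of the 6 fibroblast genes from their own means was -0.68, 0.13 and 0.09 in control, against 0.33 and 0.13 in TNF-LTBR, highest on TNF-LTBR array 1. The 4 adipocyte markers summed to 245 to 357 in control and 260 to 309 in TNF-LTBR. The part of these differences in the sterol values was not tested, and fewer cells of a type and less RNA per cell cannot be told apart in bulk RNA.

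The members' other probe sets gave a second measure of the same RNA. There were 38, from 20 genes, of which 23 lay above the brightness limit. Of these 23, 18 differed between groups in the same direction as the brightest probe set, 18 were highest on TNF-LTBR array 1 and 16 were lowest on control array 3 or TNF-LTBR array 2 (42.8% of all genes were). A further Idi1 probe set lay at 8.54, 8.58 and 6.94 in control, against 9.38 and 7.57 in TNF-LTBR, the same order of arrays. For Srebf2 a further probe set gave a difference of 0.40, against 0.01 on the brightest. For Sc5d the other probe sets gave -0.15 and -0.29, against 0.31.

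The rest of the pathway was read from lists of further genes. Of 15 other genes of sterol synthesis and SREBP control, 11 were measured, 7 higher and 4 lower, 0 of them called by limma (0 with an unadjusted p under 0.05), with a median difference of 0.10. Their mean differences by array were -0.07, 0.11 and -0.26 in control, against 0.12 and 0.09 in TNF-LTBR, so TNF-LTBR array 2 was not low for them. The smallest p belonged to Rdh11, a retinol dehydrogenase, at 8.54, 8.76 and 8.56 in control, against 8.87 and 9.08 in TNF-LTBR (limma p 0.0869). Tmem97, a sterol-regulated membrane protein, was 1.55-fold (limma p 0.140), and Aacs, which activates acetoacetate for lipid synthesis, was 1.22-fold (limma p 0.202).

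Of 18 further genes of fatty acid synthesis, elongation and activation, 17 were measured, 12 higher and 5 lower, with a median difference of 0.07. Above the brightness limit lay 13, which were tested, and 0 of them were called. Acsl5, an acyl-CoA synthetase, was the only one with an unadjusted p under 0.05. It lay at 10.82, 10.83 and 11.09 in control, against 11.23 and 11.34 in TNF-LTBR, 1.29-fold (limma p 0.0490, adjusted p 0.999). Both TNF-LTBR arrays exceeded the 3 controls. Acsl3, of the same enzyme family, was 1.32-fold (limma p 0.275) and Mcat, of mitochondrial fatty acid synthesis, 1.11-fold (limma p 0.381).

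Genes that export, store or hydroxylate sterols were measured for 13 of 15, with 9 higher, 4 lower, 0 called by limma (0 with an unadjusted p under 0.05) and a median difference of 0.12. The smallest p values were those of Cyp7b1, an oxysterol hydroxylase, at 2.31-fold (limma p 0.202), Npc2, a lysosomal cholesterol carrier, at 1.16-fold (0.222), and Nceh1, a cholesterol ester hydrolase, at 1.46-fold (0.264). Of 17 genes of fatty acid uptake and oxidation, 16 were measured, 6 higher and 10 lower, with a median difference of -0.07. Among the 15 tested, 0 were called by limma and 1 had an unadjusted p under 0.05. That one was Angptl4, an inhibitor of lipoprotein lipase, at 10.40, 11.30 and 11.15 in control, against 12.39 and 11.77 in TNF-LTBR. Both TNF-LTBR arrays exceeded the 3 controls, and the fold was 2.18 (limma p 0.0199, adjusted p 0.999). Plin2, a lipid droplet coat protein, was 1.37-fold (limma p 0.0562) and Ppard, a fatty acid receptor, 0.716-fold (limma p 0.0730). Of the DNA replication genes, 12 were higher and 1 lower, where 52.3% of all genes were higher. Their mean difference from each gene's own mean was 0.55 on TNF-LTBR array 1 but -0.17 on TNF-LTBR array 2. With 11 tested, 0 were called (0 with an unadjusted p under 0.05). Their smallest p values were those of Mcm3 (limma p 0.0563), Pcna (0.177) and Mcm2 (0.286).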

How the data were processed

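RNA of 5 samples was measured on 1-colour oligonucleotide arrays. The deposited values were linear intensities, 1 per probe set, and the submitters' processing notes name GCOS 1.4. How the authors summarised probes is not given in the sources used here. Of 45101 probe sets, 34958 carried 1 symbol in the platform annotation, 932 several and 9211 none listed. Only the first were used. Array medians differed by a ratio of 1.10 at most, within the 10% allowed, so values were used as deposited and transformed as log2(intensity + 16), which understates changes of dim genes.

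The 60% of genes with the highest mean over all arrays were tested with limma 3.58.1 in R 4.3.3 (two-sided, lmFit with eBayes and its intensity trend, 3 residual degrees of freedom), with Benjamini-Hochberg adjustment over 10916 genes and a threshold of 0.05. The script was tested on simulated data. With 3 and 2 arrays, the smallest two-sided p of an exact permutation test is 0.1. Groups and replicate numbers came from sample titles. The members and lists were chosen with earlier results of these data known. All measured members are named, with the 3 smallest p of each further pathway list and the brightest and dimmest marker of each marker list. Arms were described by means and medians, with no test. The alternatives were pseudocounts 1 and 64, quantile normalization, median centring, the mean of all probe sets of a gene, no shared-sequence suffixes, no filter, a filter keeping 40%, eBayes without trend, a replicate block and leaving out each array.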

Additional observations from a re-analysis of the deposited data

How the results depend on the processing

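The count of called genes was 0 under all 16 settings run, and 113 to 481 genes had an unadjusted p under 0.05. Over the other pseudocounts, scalings, probe set choices and the replicate block, 193 of 201 member differences kept their direction. This counts as kept Fads1 with the mean of all probe sets, which fell to -0.00. The filters and eBayes without trend cannot change a difference. The exceptions were Srebf2 with quantile normalization (-0.01) and median centring (-0.02), Sc5d with the mean of all probe sets (-0.04), Fdft1 without shared-sequence suffixes (-0.01), and, with the replicate block, Idi1 (-0.02), Fdft1 (-0.24), Hsd17b7 (-0.16) and Srebf2 (-0.10). With the replicate block the sterol mean difference was 0.08, the fatty acid one 0.16 and sterol minus fatty acid -0.08. No TNF-LTBR array has the number 3, and the block therefore gives the differences without control replicate 3. Over the tested genes, the deviations of the arrays numbered 1 correlated at r = 0.13. Control array 2 went with TNF-LTBR array 1 (r = 0.80). It thus deviated oppositely to TNF-LTBR array 2, since the 2 TNF-LTBR differences sum to 0. The labels say nothing else of a pairing, so the arrays share only a number.

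Leaving out 1 array gave a sterol mean difference of -0.12 to 0.69, a fatty acid one of 0.01 to 0.32 and sterol minus fatty acid of -0.13 to 0.37. Of 145 member differences, 29 turned, with Srebf2 at -0.00 without control array 1 counted as kept. The members that turned ranged as follows: Acaca -0.04 to 0.38, Acly -0.10 to 0.29, Cyp51 -0.21 to 1.10, Fads1 -0.04 to 0.10, Fads2 -0.07 to 0.39, Fdft1 -0.48 to 0.58, Hmgcs1 -0.09 to 0.57, Hsd17b7 -0.63 to 0.94, Idi1 -0.44 to 1.36, Insig1 -0.04 to 0.18, Msmo1 -0.20 to 1.04, Mvd -0.16 to 1.19, Nsdhl -0.16 to 0.74, Pmvk -0.28 to 0.04, Sc5d -0.12 to 0.75, Scd2 -0.16 to 0.40, Sqle -0.07 to 0.51, Srebf2 -0.14 to 0.15, Stard4 -0.28 to 0.69 and Tm7sf2 -0.52 to 0.24. Without turning, these moved by over 1.5 times: Dhcr7 0.08 to 1.24, Ebp 0.10 to 0.27, Elovl6 0.13 to 0.71, Fasn 0.01 to 0.26, Fdps 0.28 to 1.15, Scd1 0.05 to 0.34 and Srebf1 0.09 to 0.24. Fewer arrays enter these fits. Genes near the added 16 have understated differences, and signal over background was not used here.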

Other observations

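Of the lists on sterol handling and on fatty acid uptake, 4 genes with widely differing arrays within a group were picked with their values known, and 0 of them passed the test. Other genes of the sterol handling list varied little, such as Osbp, with a range of 0.27 over the 5 arrays, and Npc2, with 0.49. Ch25h, which encodes a cholesterol hydroxylase, lay at 8.13, 11.37 and 6.73 in control, against 11.82 and 6.98 in TNF-LTBR, and it was high on the arrays where the sterol genes were highest, control array 2 and TNF-LTBR array 1. Apoe, which encodes a lipoprotein ligand that carries cholesterol out of cells, lay at 10.92, 10.68 and 12.88 in control, against 10.45 and 12.53 in TNF-LTBR, and was highest on control array 3 and TNF-LTBR array 2. Pparg, a fatty acid sensing receptor, lay at 8.47, 7.29 and 10.10 in control, against 6.73 and 9.80 in TNF-LTBR, and was high on the same arrays as Apoe. Cd36, a fatty acid transporter, lay at 9.84, 7.05 and 10.14 in control, against 6.86 and 9.68 in TNF-LTBR. For Ch25h, Apoe, Pparg and Cd36 the groups overlapped. Pparg and Cd36 were both highest on control array 3 and lowest on TNF-LTBR array 1. Control array 1 lay above TNF-LTBR array 2 for Cd36 and below it for Pparg. Other genes of the fatty acid uptake list did not all share these highest and lowest arrays. Pdk4 was likewise highest on control array 3 (12.04) and lowest on TNF-LTBR array 1 (9.14). Fabp4 was lowest on control array 3 (12.04), and Angptl4 was highest on TNF-LTBR array 1 (12.39).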
